A study of Rattus norvegicus with 30 samples.

Results

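In the cortex of control rat embryos, 1578 intervals enriched for H3K27me3 lay apart from H3K4me3. They were chosen by 2 measured properties. Each was an interval of the control H3K27me3 list at least 500 bp wide, and no H3K4me3 interval of control or HFD embryos lay within 2500 bp of either edge. The control list held 57604 intervals, of which 37627 reached that width, so that the distal intervals made up 4.19% of the wide intervals and 2.74% of the list. The other 36049 wide intervals had H3K4me3 nearby, and they served as the comparison throughout.

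H3K27me3 is placed on histone H3 by the Polycomb repressive complex PRC2, whose catalytic subunit is EZH2, and it accompanies gene silencing. H3K4me3 is found at active promoters and, together with H3K27me3, the promoters of many developmental genes that are silent but can be switched on later. In an embryonic brain many H3K27me3 peaks sit at or beside CpG-rich promoters. H3K27me3 away from H3K4me3 can lie at promoters without H3K4me3, in silent gene bodies, at distal elements or between genes. These places were not told apart here. H4K16Ac is an acetyl mark of open chromatin, while total H3 and pan H4 antibodies recognise the histones whatever their modifications and show where histone-bound DNA was recovered.

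The samples were the brain cortex of E14.5 embryos of Wistar rats, without any transgene. The control dams ate normal chow, and the HFD dams ate a high-fat feed with 60% of its calories from fat and were obese before mating. ChIP-seq, which sequences the DNA held by an antibody against a histone or its mark, was run with 5 antibodies in both diets, with 3 libraries for each antibody and diet. Each group of 3 libraries was deposited as 1 pooled list, which gave 10 lists with 1549251 entries in all. There was no replicate for any list, so no difference between diets or antibodies could be tested, and the 95% Wilson and Newcombe intervals given here cover counting error only. One library of control total H3 (replicate 3) names both diets in its labels, and its contribution could not be separated from the pooled list. The tissue is a mixture of cells, in which fewer cells with a mark and less of the mark per cell cannot be told apart.

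The lists were permissive. Their weakest entries had q values close to 0.5, and 60.8% of the control H3K27me3 entries but 24.1% of the HFD entries reached a q of at most 0.05. The 2 H3K27me3 lists also differed in their background, which was estimated for each list from its modal fold enrichment and the p-value that goes with it. It came to 0.880 fragments per base in control and 0.351 in HFD, or 39.9% of the control value. For H3K4me3 it was also lower in HFD, at 1.23 and 1.08. For the other antibodies it was higher in HFD, at 1.01 in control and 1.13 in HFD for total H3. H4K16Ac had 1.61 and 1.75, while pan H4 had 1.64 and 1.80.

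Most distal H3K27me3 intervals were weak. Their −log10 q, the strength that the peak caller gave them, ran from 0.328 to 37.8 with a median of 0.769, which is a q of 0.170. Their fold enrichment over background had a median of 2.67 and a highest value of 10.3. The value 0.691 alone was shared by 343 of them, and 309 had the modal fold enrichment of the list, 2.66, which corresponds to a pileup of 4 fragments. A q of at most 0.05 was reached by 243 distal intervals (15.4%, 13.7 to 17.3) and a −log10 q of at least 5 by 22 (1.39%, 0.922 to 2.10). Among the intervals near H3K4me3 the corresponding shares were 70.3% and 43.7%, with a median −log10 q of 3.30. Since strength was measured in the list that supplied the members, these values describe the choice.

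The distal intervals were only slightly narrower than those near H3K4me3. Their widths ran from 500 to 3293 bp with a median of 917 bp, and 974 bp was the median near H3K4me3, where the widest interval reached 8332 bp. Together they covered 1.54 Mb, against 40.0 Mb for the intervals near H3K4me3. The 22 distal intervals with a −log10 q of at least 5 were 506 to 2273 bp wide with a median of 930 bp, close to that of the whole set, and 1 of them exceeded 1500 bp.

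**Figure D1:**
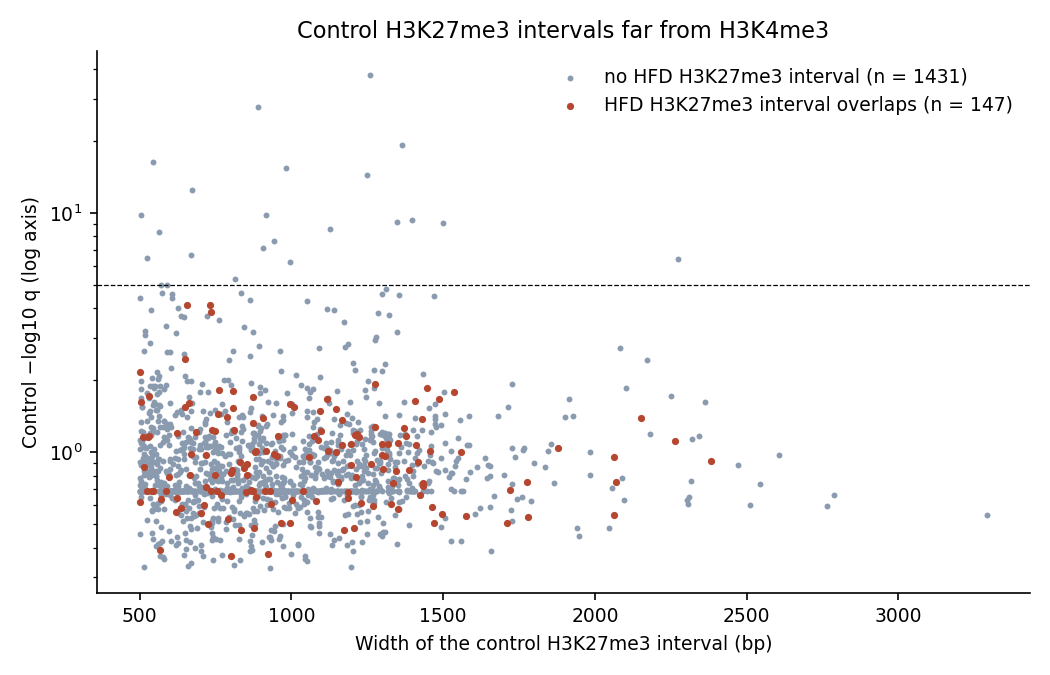
Each point is 1 of the 1578 control H3K27me3 intervals far from H3K4me3, with its width in bp on the x axis and its control −log10 q on a log y axis; the dashed line is at 5. Red points (147) are overlapped by an HFD H3K27me3 interval and grey points (1431) are not, and all 22 intervals at or above the line are grey.

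Many of the distal intervals lay close to the chosen limit. The median distance to H3K4me3 was 5130 bp, with quartiles at 3604 and 9314 bp, and 766 intervals (48.5%) were within 5000 bp. The farthest of them was 245513 bp from H3K4me3, and 3 lay on sequences with no H3K4me3 interval at all. Intervals at the limits looked alike on both sides. At chr1:177902771-177903791 and chr7:59949851-59950728 the distance was 2501 bp and the −log10 q 0.691 and 1.12. Just outside, at chr18:55965608-55967708 and chr1:264896556-264897189, the distances were 2498 and 2496 bp and the −log10 q 0.983 and 0.841. By width, chr2:197067935-197068434 and chr2:189441156-189441655 were the narrowest taken, at 500 bp with −log10 q of 0.691 and 0.779. The nearest ones left out, chr6:9756303-9756801 and chr8:129912415-129912913, were 499 bp wide with −log10 q of 0.381 and 0.730.

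The distal intervals were spread over the genome and mostly stood alone. Their share of the wide intervals ran from 2.89% on chromosome 19 (36 of 1246, 2.09 to 3.97) to 5.28% on chromosome 11 (52 of 985, 4.05 to 6.86). Chromosome Y had none among its 25 wide intervals, and 9 lay on 8 unplaced scaffolds. With a gap of at most 50000 bp to the next, 1419 of them (89.9%) had no distal neighbour, 73 pairs formed, and 4 runs held 3 or more. The longest run held 4 intervals at chr7:129623029-129698129, the strongest with a −log10 q of 7.15. The runs of 3 were at chr10:92540266-92577585, where 2 intervals were among the strongest 22, at chr12:37881506-37934999 and at chr4:153520514-153586489. In the last of these no interval had a −log10 q above 0.767.

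In embryos of HFD dams, few of the distal intervals were met by an H3K27me3 interval. An HFD interval overlapped 147 of 1578 (9.32%, 7.98 to 10.9). Over all wide control intervals the share was 56.6%, and over those near H3K4me3 it was 58.7% (58.2 to 59.2). The distal share was lower than the share near H3K4me3 by 49.4 percentage points (difference −49.4, −50.8 to −47.7). The size of this gap depended on weak HFD intervals. Counting only HFD intervals with a q of at most 0.05, 10 distal intervals (0.634%) and 8436 near ones (23.4%) were overlapped, a difference of −22.8 points, and at a −log10 q of at least 5 it was −1.31 points. The set itself depended on weak H3K4me3 intervals. When only H3K4me3 intervals with a −log10 q of at least 5 were counted, 12589 intervals were distal, and HFD H3K27me3 overlapped 23.7% of them, with a difference from the near intervals of −49.5 points. No HFD interval over a distal interval had a −log10 q of 5 or more, and the median −log10 q of the 147 was 0.763, with a median fold enrichment of 2.81. These HFD intervals also reached over only part of the control interval, with a median of 39.3% of its width covered.

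Overlap with HFD H3K27me3 followed no steady order with strength among the distal intervals. With a control −log10 q under 0.6, 23 of 206 were overlapped (11.2%, 7.56 to 16.2), and at 0.6 to 0.8 the count was 37 of 630 (5.87%, 4.29 to 7.99). The share was 9.77% (6.70 to 14.0) at 0.8 to 1, 13.2% (9.48 to 18.0) at 1 to 1.3 and 16.4% (11.4 to 23.2) at 1.3 to 2. It was 7.25% (3.13 to 15.9) at 2 to 5, and from 5 upward none of 22 was overlapped. A count of 0 of 22, taken as up to 3 counts, allows a share of up to 13.6%, and the Wilson upper bound is 14.9%. Near H3K4me3 the share was 21.8% under 0.6, 22.5% at 0.6 to 0.8, 44.9% at 1.3 to 2, 63.2% at 2 to 5 and 81.7% (81.1 to 82.3) at 5 and over. Strength and overlap thus rose together near H3K4me3. At equal strength the distal share was below the near share in all 7 ranges of −log10 q.

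The strongest of these overlaps were few. At chr6:11029018-11029748, control H3K27me3 had a −log10 q of 4.12 and a fold enrichment of 4.54, and HFD H3K27me3 had 4.73 and 5.41 over 95.3% of the width. That was the only distal interval with an HFD −log10 q above 2.46. The histones there differed between diets in opposite directions. Total H3 had a −log10 q of 38.0 in control and no interval in HFD, whereas pan H4 had no interval in control and 62.7 in HFD. H4K16Ac was listed in both, at 13.7 in control and 12.9 in HFD. The HFD H3K27me3 intervals that followed were weaker. The −log10 q was 2.46 at chr4:153520514-153521385, 2.10 at chr13:104671322-104672532, 1.78 at chr14:62246149-62246939 and 1.42 at chr1:226857600-226858811. They covered 18.0%, 18.8%, 8.72% and 18.0% of the control interval. The intervals on chromosomes 4 and 1 were overlapped by all 7 other lists.

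The difference in estimated background bears on this comparison. A distal interval of median strength corresponded to an estimated pileup of 4.03 fragments, or 1.60 when scaled to the background of the HFD library pool, and the median entry of the HFD list had a pileup of 3.0. Scaled in the same way, the 22 strongest had estimated pileups of 3.01 to 7.34, all at or above that median. Of all 1578 distal intervals, 37 reached it. These pileups took the same background for every interval of a list, whereas the deposited fold enrichment is over the local background. They therefore cannot show whether an interval would have been listed in HFD. The part of background and depth in the low overlap was not tested.

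Histone and acetylation intervals fell on the distal intervals far less often than on those near H3K4me3. Total H3 overlapped 676 in control (42.8%, 40.4 to 45.3) and 758 in HFD (48.0%, 45.6 to 50.5), where all wide intervals had 90.4% and 92.6%. H4K16Ac overlapped 904 in control (57.3%, 54.8 to 59.7) and 958 in HFD (60.7%, 58.3 to 63.1), against 94.8% and 95.7%. Pan H4 overlapped 784 in control (49.7%, 47.2 to 52.1) and 880 in HFD (55.8%, 53.3 to 58.2), against 92.5% and 94.6%. Relative to the intervals near H3K4me3 the distal shares were lower by 49.7 points (−49.7) for control total H3 and by 36.5 points (−36.5) for HFD H4K16Ac, with the other 4 lists between. When only H3K4me3 intervals with a −log10 q of at least 5 were counted, the larger distal set had shares of 75.3% for control total H3, 86.4% for control H4K16Ac and 80.1% for control pan H4. The bar chart of overlaps shows the same order of the antibodies in both sets, with H4K16Ac highest. H4K16Ac was called as broad peaks and total H3 and pan H4 as narrow ones, so this order is not on a common footing. Counting only overlapping intervals with a −log10 q of at least 5, H4K16Ac was the lowest of these antibodies in both sets. Among the distal intervals it had 3.30% in control, against 12.2% for total H3 and 9.76% for pan H4. Near H3K4me3 the control shares were 55.3% for H4K16Ac, 77.8% for total H3 and 77.2% for pan H4.

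**Figure D2:**
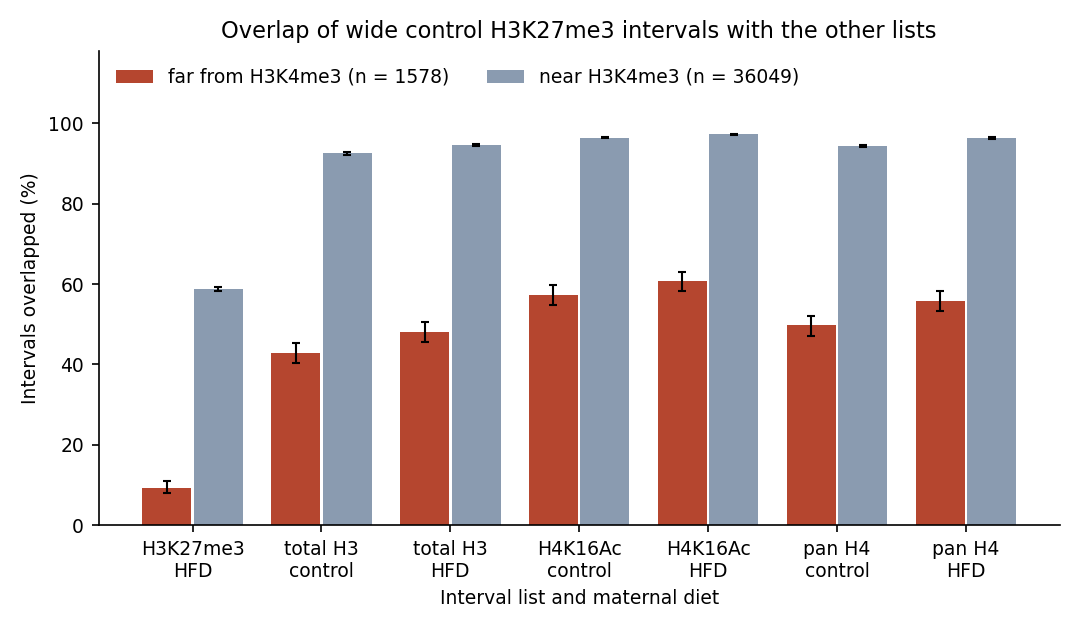
Bars give the percentage of wide control H3K27me3 intervals overlapped by at least 1 bp by each of the other 7 lists, for intervals far from H3K4me3 (red, n = 1578) and near it (grey, n = 36049); error bars are 95% Wilson intervals. Distal bars run from 9.32% to 60.7%, and each is below its neighbour, which runs from 58.7% to 97.2%.

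The histone intervals met there were also weaker. Over the distal intervals the overlapping total H3 interval had a median −log10 q of 3.73 in control, and near H3K4me3 it was 14.1. For H4K16Ac in control the medians were 2.09 and 6.06. H4K16Ac lay over most of the width of the distal intervals it met, with a median of 87.5% covered in control. The control medians were 35.8% for total H3 and 39.8% for pan H4. Near H3K4me3 all of these were higher, at 99.3% for H4K16Ac, 89.5% for total H3 and 93.8% for pan H4. Total H3 and pan H4 were called as narrow peaks and H4K16Ac as broad ones, so these widths are not on a common footing.

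Between diets, the histone lists gained slightly more of the distal intervals than they lost. For total H3, 509 distal intervals were overlapped in both diets, 167 in control only and 249 in HFD only, a difference of 5.20 points towards HFD. For H4K16Ac, 787 were overlapped in both, 117 in control only and 171 in HFD only, a difference of 3.42 points. For pan H4, 618 were overlapped in both, 166 in control only and 262 in HFD only, a difference of 6.08 points. Near H3K4me3 the corresponding differences were 2.07, 0.774 and 1.89 points, where shares were already above 92%. With the 2 lists of each antibody cut to equal length, the HFD shares of the distal intervals were 46.0%, 60.1% and 55.6%, still above the control shares. Strength moved most for pan H4, for which 154 distal intervals met an interval with a −log10 q of at least 5 in control and 450 (28.5%) did so in HFD. Total H3 went from 192 (12.2%) to 220 (13.9%) by the same measure and H4K16Ac from 52 (3.30%) to 76 (4.82%). Near H3K4me3 the shares were also higher in HFD, with 77.2% in control and 89.0% in HFD for pan H4. For total H3 they were 77.8% and 80.0%, and for H4K16Ac 55.3% and 59.1%. The pan H4 list as a whole was also stronger in HFD, with a q of at most 0.05 in 92.7% of its entries against 85.9% in control. The estimated background of all of these antibodies was higher in HFD, and its part in these shifts was not tested. No replicate list was given against which to set these differences.

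The distal intervals varied widely in how many of the 7 other lists overlapped them. The most frequent counts were 0 and 6 lists, while 1 to 5 lists held 9.25%, 8.68%, 10.9%, 9.25% and 14.8% in turn. None of the 7 other lists overlapped 350 distal intervals (22.2%), and near H3K4me3 this held for 308 of 36049 (0.854%). All 7 lists overlapped 58 distal intervals (3.68%) but 20473 (56.8%) of those near H3K4me3. All 6 lists of total H3, H4K16Ac and pan H4 overlapped 369 distal intervals (23.4%), against 88.2% of the intervals near H3K4me3. Of the 369, 58 (15.7%, 12.4 to 19.8) had H3K27me3 in HFD too. None of the 6 overlapped 360 distal intervals (22.8%), against 0.877% near H3K4me3. Of the 360, 10 (2.78%, 1.52 to 5.04) had H3K27me3 in HFD. Near H3K4me3, HFD H3K27me3 overlapped 64.4% (63.8 to 64.9) of the intervals in all 6 lists. For near intervals in none of the 6 the share was 2.53% (1.29 to 4.92), close to the distal one. H4K16Ac in both diets without total H3 or pan H4 in either was found at 21 distal intervals (1.33%, 0.872 to 2.03). Near H3K4me3 this held for 82 intervals (0.227%, 0.183 to 0.282). These are shares of all intervals in a set, and far more of the distal ones had none of the 6 lists (22.8% against 0.877%). Median strength was 0.691 for those in no other list and 1.01 for those in all 7.

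**Figure D3:**
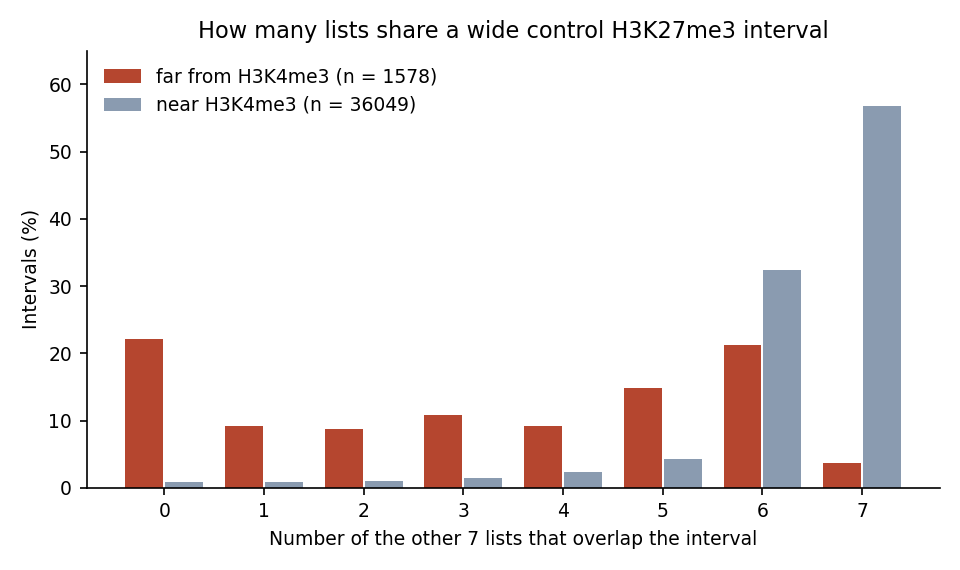
Bars give the percentage of wide control H3K27me3 intervals (y axis) that are overlapped by 0 to 7 of the other lists (x axis), far from H3K4me3 (red, n = 1578) and near it (grey, n = 36049). The distal bars have peaks at 0 lists (22.2%) and 6 lists (21.3%), and the near bars rise to 56.8% at 7 lists.

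Intervals met by HFD H3K27me3 also carried the histone lists more often. Total H3 in control overlapped 59.2% (51.1 to 66.8) of the 147 distal intervals with HFD H3K27me3 and 41.2% (38.6 to 43.7) of the 1431 without. For H4K16Ac in control the shares were 75.5% (68.0 to 81.8) and 55.4% (52.8 to 58.0), while pan H4 in control had 63.9% and 48.2%. In HFD the shares were 71.4% and 45.6% for total H3, 84.4% and 58.3% with H4K16Ac, while pan H4 had 72.8% and 54.0%. All 6 lists were therefore more frequent where H3K27me3 was listed in both diets. Width was not matched between these groups. HFD H3K27me3 overlapped 6.42% of the distal intervals under 700 bp and 14.0% of those of 1500 bp or more. Over the same widths the share of control total H3 was 35.8% and 66.0%. The part of width in this co-occurrence was not tested. The control −log10 q of the intervals with and without HFD H3K27me3 had medians of 0.909 and 0.760.

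Overlap with the control histone lists was lower at greater distance from H3K4me3. H4K16Ac in control overlapped 62.3% (58.8 to 65.6) of the distal intervals under 5000 bp from H3K4me3, 61.3% at 5000 to 10000 bp, 45.6% at 10000 to 20000 bp and 38.9% (32.1 to 46.2) beyond. Total H3 in control went from 46.6% to 24.4% (18.7 to 31.2) over the same ranges. In HFD the 180 farthest intervals had shares of 51.7% (44.4 to 58.9) for H4K16Ac and 43.3% (36.3 to 50.6) for total H3, above those in control. HFD H3K27me3 showed no such order, with 10.1%, 10.7%, 3.11% and 9.44% from the nearest to the farthest range. Wider intervals were overlapped more often, as their greater length alone allows. Total H3 in control met 35.8% of those under 700 bp and 66.0% (56.3 to 74.5) of the 100 over 1500 bp, and near H3K4me3 the values for these widths were 91.2% and 95.9%.

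Each of the 5 widest distal intervals was overlapped by 4 to 6 of the 7 other lists. The widest, chr3:5907145-5910437, spanned 3293 bp with a −log10 q of 0.548 and was overlapped by all 6 lists of total H3, H4K16Ac and pan H4, as were chr20:13910699-13913464 and chr17:66975062-66977604. On chromosome 17 the −log10 q of pan H4 was 5.52 in control and 10.4 in HFD, and that of total H3 was 4.78 and 8.20. At chr19:55135057-55137845, which was 2789 bp wide, H4K16Ac lay over 89.6% of the width in control and all of it in HFD, with −log10 q of 1.37 and 1.83. At chr4:155561792-155564397, 4 lists overlapped, none of them with a −log10 q above 4.15. None of the 5 had an HFD H3K27me3 interval, and none had a control −log10 q above 0.972.

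The 22 strongest distal intervals behaved differently. Total H3 overlapped 4 of them in control (18.2%, 7.31 to 38.5) and 5 in HFD (22.7%, 10.1 to 43.4). H4K16Ac overlapped 5 in control and 6 in HFD (27.3%, 13.2 to 48.2), and pan H4 overlapped 3 in control (13.6%, 4.75 to 33.3) and 5 in HFD. HFD H3K27me3 overlapped none, and the nearest HFD H3K27me3 interval was 3793 to 60787 bp away, with a median of 15446 bp. No other list overlapped 14 of the 22 (63.6%). Near H3K4me3, 11392 intervals fell in the same range of −log10 q, and HFD H3K27me3 overlapped 78.0% (77.2 to 78.7) of them, control total H3 99.6% and control H4K16Ac 99.8%. Among the distal intervals the shares of control total H3 and control H4K16Ac were highest at a −log10 q of 1.3 to 2 and lower above it, as the plot by strength shows. For H4K16Ac in control they were 58.3% (51.4 to 64.8) under 0.6, 50.2% (46.3 to 54.1) at 0.6 to 0.8, 73.0% (65.5 to 79.4) at 1.3 to 2, 50.7% (39.2 to 62.2) at 2 to 5 and 22.7% (10.1 to 43.4) above.

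**Figure D4:**
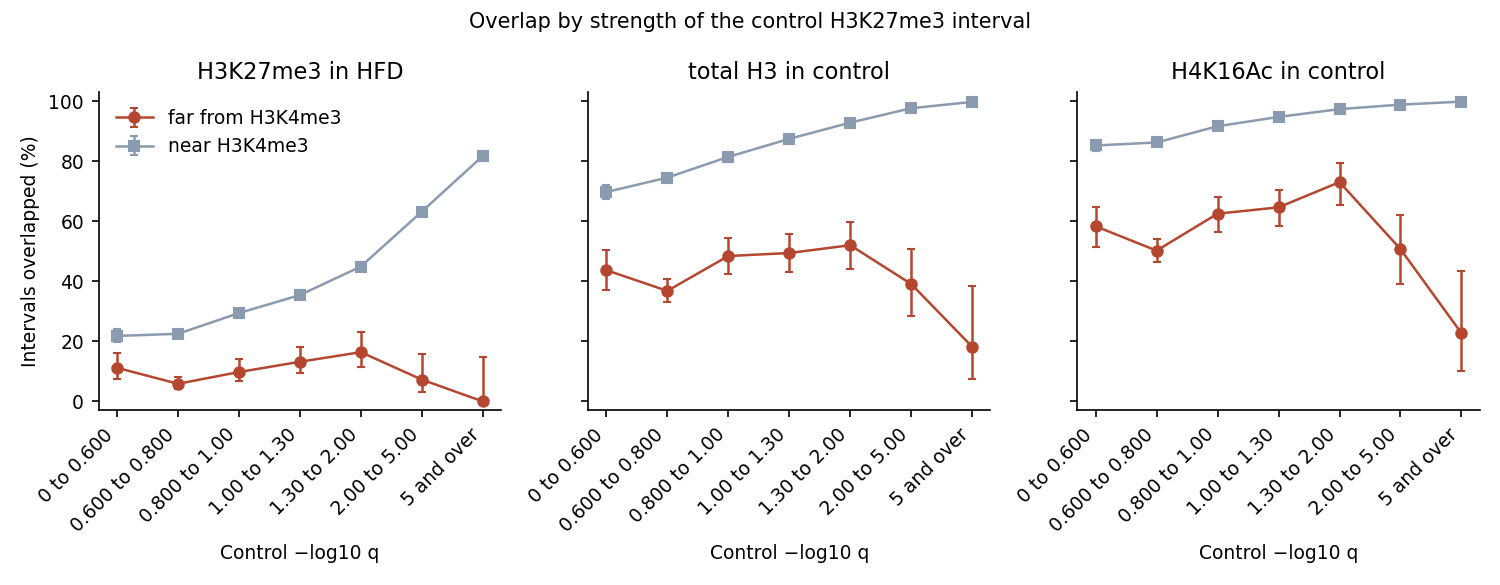
Points give the percentage of wide control H3K27me3 intervals (y axis) overlapped by HFD H3K27me3, control total H3 and control H4K16Ac in 7 ranges of control −log10 q (x axis), far from H3K4me3 (red circles) and near it (grey squares), with 95% Wilson intervals. The near points rise to 81.7% and above in the strongest range, where the distal points are at 0%, 18.2% and 22.7%.

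The strongest distal interval, chr18:1960293-1961550, had a −log10 q of 37.8, a fold enrichment of 10.3 and an estimated pileup of 18.4 fragments. No other list overlapped it, and the nearest interval of each of the 9 other lists began between 8986 and 9213 bp away. The next, chr11:73814508-73815398, had a −log10 q of 27.8 and a fold enrichment of 9.85. Again no list overlapped it, with the nearest H4K16Ac interval of control 4317 bp away. Strong enrichment in the control H3K27me3 pool alone was the common pattern, also at chr1:166750049-166751031 (−log10 q 15.4), chr1:255893424-255894673 (14.5), chr4:180756366-180756871 (9.82) and chr4:147440921-147442319 (9.39). Near the last of these, intervals of HFD total H3 and control pan H4 came within 557 and 616 bp without touching it. Control H4K16Ac came within 908 bp of chr1:166750049-166751031 and 498 bp of chr1:255893424-255894673. At chr1:192901964-192902634, with a −log10 q of 12.5, only HFD total H3 overlapped, over 11.0% of the width and with a −log10 q of 3.59. Intervals of control H4K16Ac and control pan H4 lay only 6 and 33 bp from it.

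Among the 10 strongest, 3 were met by several lists. At chr1:269626-270990, near the start of the chromosome, H3K27me3 had a −log10 q of 19.4, and H4K16Ac covered 99.9% of the width in control and all of it in HFD, with −log10 q of 13.2 and 49.1. Total H3 there had −log10 q of 8.13 in control and 3.05 in HFD, and pan H4 was listed in HFD only, at 8.42. At chr9:44806996-44807540, with a −log10 q of 16.4, total H3 was listed in control (6.79), and H4K16Ac (2.37) and pan H4 (3.02) in HFD. At chr1:78857798-78858713, with a −log10 q of 9.85, H4K16Ac and pan H4 were listed in both diets, with −log10 q between 3.66 and 4.23, and total H3 in neither. HFD H3K27me3 lay 4711, 19660 and 5759 bp from these 3. Which genes lie at these positions was not analysed here, since no annotation of rn6 was used.

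**Figure D5:**
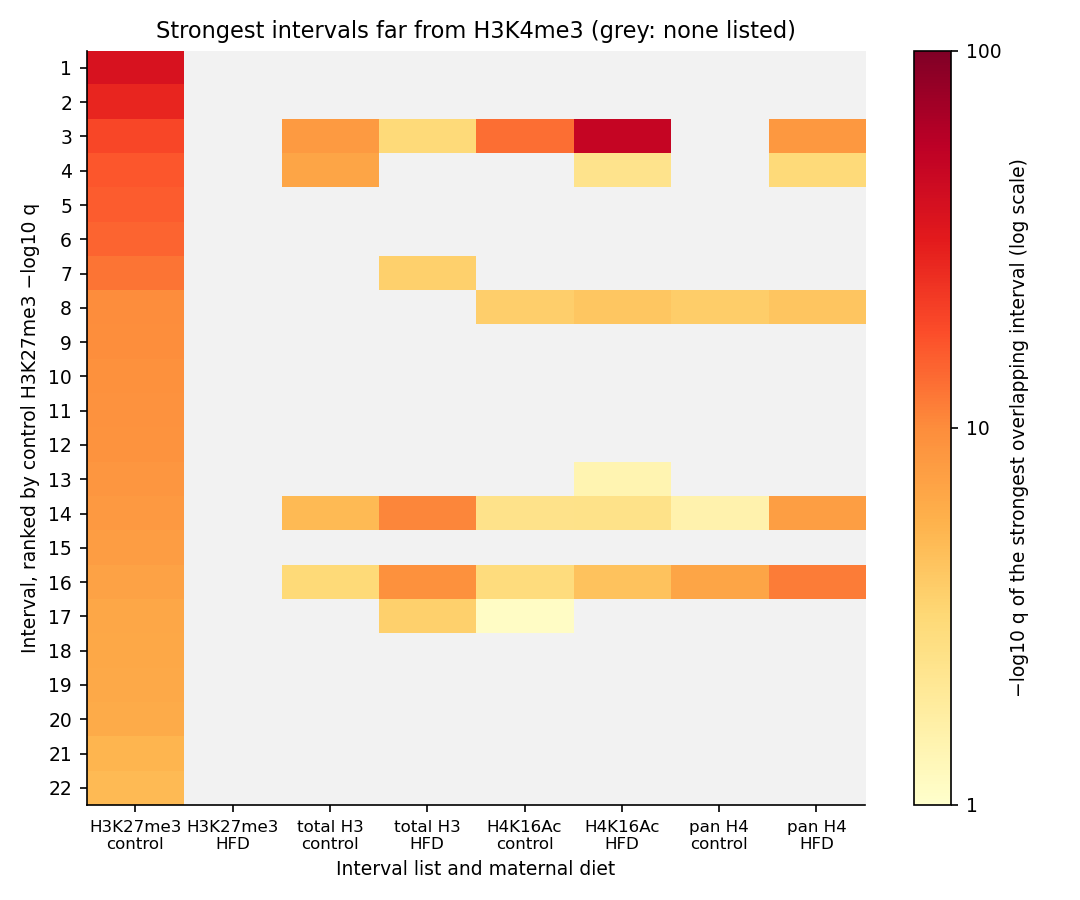
Rows are the 22 strongest H3K27me3 intervals far from H3K4me3, ranked by control −log10 q, and columns are the control H3K27me3 list and the 7 other lists. Colour gives the −log10 q of the strongest overlapping interval on a log scale from 1 to 100 and grey means that none is listed; the HFD H3K27me3 column is grey throughout, and 14 of the rows are grey in all 7.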

How the data were processed

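ChIP-seq libraries of E14.5 rat cortex (30 libraries, 5 antibodies, 2 diets) were aligned by the authors to rn6 with Bowtie2, and enriched intervals were called with MACS2 on the 3 libraries of a group together, giving 6 narrow and 4 broad lists. Versions, thresholds and input libraries are not given in the sources used here. The deposited columns used were the fold enrichment ratio and the −log10 p and −log10 q. The deposited score column was used only to check the reading of the files. The lists give no read counts, so library depth is unknown. Background pileup was estimated from the modal fold enrichment and its p-value, taking the fold as (pileup + 1)/(background + 1) and p as a Poisson tail.

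Coordinates are 1-based on rn6. Entries with equal coordinates (several summits) were merged, distances were measured between edges, and an overlap of 1 bp counted. Shares have 95% Wilson intervals and differences Newcombe intervals. On simulated intervals, overlap and distance equalled a base by base count in 300 of 300 cases. Regions named were the 10 strongest, the 5 widest, the 5 with the strongest HFD H3K27me3 and 2 on each side of each limit; the runs of neighbours and the 22 with a −log10 q of at least 5 were added after their values were seen. The set and all lists were chosen with earlier results of these data known. The reference tables at hand are of another build, so no gene names or sequences are given. Alternatives were the distance, width, strength and overlap required. Python 3.11.15, pandas 2.3.3 and scipy 1.17.1 were used.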

Additional observations from a re-analysis of the deposited data

How the results depend on the processing

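No paired analysis was possible because the libraries of a group share 1 pooled list and no result came from a test; for the same reason no library could be left out. Of 62 recomputed shares, 46 moved beyond their counting interval, as did 6 of 8 recomputed differences, all 8 of which stayed negative; 4 of 5 recomputed set sizes moved by over 1.5 times. The causes were not tested. Shares are given in the order HFD H3K27me3, total H3, H4K16Ac and pan H4, control before HFD. At over 10000 bp from H3K4me3, 373 intervals were left, with shares of 6.17%, 30.6%, 41.8%, 42.4%, 49.9%, 41.8% and 49.1%, and a difference from the near intervals of −50.9 points in HFD H3K27me3. At a width of at least 1000 bp there were 652, with 10.9%, 47.4%, 52.6%, 62.4%, 64.9%, 53.4% and 60.3%, and −53.6 points. Counting only H3K4me3 intervals with a −log10 q of at least 5 gave 12589 distal intervals, with 23.7%, 75.3%, 81.2%, 86.4%, 88.8%, 80.1% and 85.9%, so the size of the set and its overlaps rest on weak H3K4me3 intervals, while the difference was −49.5 points. With a control q of at most 0.05 there were 243, with 12.3% for HFD H3K27me3, 50.6% for HFD total H3, 62.1% and 63.4% for H4K16Ac, and −59.4 points. Requiring 50% of the width covered gave 3.55%, 14.0%, 15.5%, 38.8%, 40.2%, 18.5% and 23.2%, and −34.7 points. Requiring a −log10 q of at least 5 in the overlapping list gave 0%, 12.2%, 13.9%, 3.30%, 4.82%, 9.76% and 28.5%, and −1.31 points. A q of at most 0.05 in that list, tried after the data were seen, gave 0.634%, 39.4%, 43.9%, 46.7%, 47.5%, 42.5% and 52.0%, and −22.8 points. Leaving out the scaffolds, and lists of equal length (also tried after the data were seen), moved no value beyond its counting interval. Pooled lists without replicates and the lower background of HFD H3K27me3 limit every comparison with HFD.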

Other observations

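The same choice applied to the HFD H3K27me3 list gave more intervals, with fewer of them at a low q. Of 23924 HFD intervals at least 500 bp wide, 3019 (12.6%, 12.2 to 13.0) were far from H3K4me3, against 4.19% (4.0 to 4.4) in control. Their median fold enrichment was 2.78, against 2.67 in control, and their median −log10 q was 0.753, against 0.769; 61 reached a q of at most 0.05, against 243 in control, and 1 had a −log10 q of at least 5, against 22. A control H3K27me3 interval of any width overlapped 147 of them (4.87%, 4.16 to 5.70) but 74.7% (74.1 to 75.3) of the 20905 wide HFD intervals near H3K4me3. The histone lists also met them less often than the control set, with 18.2% (16.8 to 19.6) for control total H3, 26.5% (25.0 to 28.1) for control H4K16Ac and 22.0% (20.6 to 23.5) for control pan H4. These shares were 20.1%, 26.8% and 22.5% in the HFD lists.

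Control H3K27me3 intervals under 500 bp were far from H3K4me3 more often than the wide ones, in 3088 cases (15.5%). Their median fold enrichment was 2.84 and their median −log10 q 0.969, 38 had a −log10 q of at least 5, and an HFD H3K27me3 interval overlapped 179 (5.80%, 5.03 to 6.68). In HFD, 6458 narrow intervals (25.7%) were far from H3K4me3, and 7 had a −log10 q of at least 5.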
